A study of Mus musculus with 30 samples.

Results

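Reactive astrocyte genes were followed in the mouse cervical spinal cord after a stroke in the cortex. The set was a named list of 10 genes that astrocytes are known to raise when they become reactive, and members were found in the table by name. Of the 10, 8 had a row among the 16995 genes measured: Gfap, Vim, Nes, Serpina3n, Cd44, Tnc, Sox9 and S100a6. Lcn2 and Timp1 were not analysed here.

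The animals were adult female C57BL/6 mice (C57BL/6J in the study's methods). Stroke groups received a photothrombotic lesion of the right sensorimotor cortex, made with the light-sensitive dye Rose Bengal and illumination through the skull, and sham animals had no illumination. Tissue came from the intermediate laminae of the cervical hemicord that had lost its corticospinal input, trimmed by hand, so each library held a mixture of cell types far from the lesion itself. Values were available for 5 sham animals, 4 animals at 4 days post-injury (dpi) and 5 animals each at 7, 14, 28 and 42 dpi, and each animal was 1 library. The labels name no transgene and no allele. The first part of a label (A11 in A11-4) marks a unit that the labels do not explain. Except for unit 3, which held animals of 28 and 42 dpi, each unit held 1 group, so unit and group cannot be told apart.

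Astrocytes answer injury, also when axons degenerate at a distance from the lesion, with a graded programme known as reactive astrogliosis. They build up intermediate filaments (Gfap, vimentin and, in some settings, nestin), secrete protease inhibitors and carriers such as Serpina3n, and change the matrix around them through tenascin C and the hyaluronan receptor Cd44. Signalling by cytokines of the interleukin 6 family through gp130 and the transcription factor STAT3 is a known driver of the programme, and Sox9 is a transcription factor that astrocytes carry in their nuclei from development onwards.

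Measured values were CPM (read counts scaled to library size) normalized by the authors and rounded to 0.1, and this scale is meant wherever a value is given without a unit. Fold changes are log2 differences of (value + 0.5), tested with limma in 1 fit of all 6 groups, and a gene was called where its Benjamini-Hochberg adjusted p over all 16995 genes was under 0.05. Sums of values lay between 714597 and 2256910 per animal, and the median gene lay between 10.2 and 11.2. The spread in sums went with 18S ribosomal RNA (Rn18s-rs5), whose group medians in time order were 34962 (sham), 24929, 56408, 95114, 323193 and 184745. Values above 200000 occurred in 4 of the 5 animals of the 28 dpi group, in 2 each of the 14 and 42 dpi groups, and in no earlier group. The tissue held astrocytes at every time: all 14 astrocyte markers had values, and their sum lay between 5153 and 5972 in every animal.

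Per kilobase of the longest transcript, the mean sham level was 68.9 for Gfap, 10.2 for Serpina3n, 3.94 for Vim, 1.89 for Sox9, 1.71 for Nes, 1.58 for S100a6, 0.492 for Cd44 and 0.208 for Tnc. Gfap was thus by far the most abundant member. In the mm10 assembly the members lie at chr11:102887336-102900912 (Gfap, minus strand), chr2:13573927-13582826 (Vim, plus), chr3:87971078-87980451 (Nes, plus), chr12:104406729-104414329 (Serpina3n, plus), chr2:102811141-102901665 (Cd44, minus), chr4:63959785-64047015 (Tnc, minus), chr11:112782224-112787760 (Sox9, plus) and chr3:90612882-90624181 (S100a6, plus). Serpina3n belongs to a cluster of near copies: 21.6% of the 31-base words in its transcripts also occurred in another gene, so its value may hold reads of relatives. For Sox9 the share was 1.12%, and for no other member was it above 0.187%. Tnc shares 176 exon bases with a transcript on the opposite strand, and the kit did not mark strand.

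**Figure D1:**
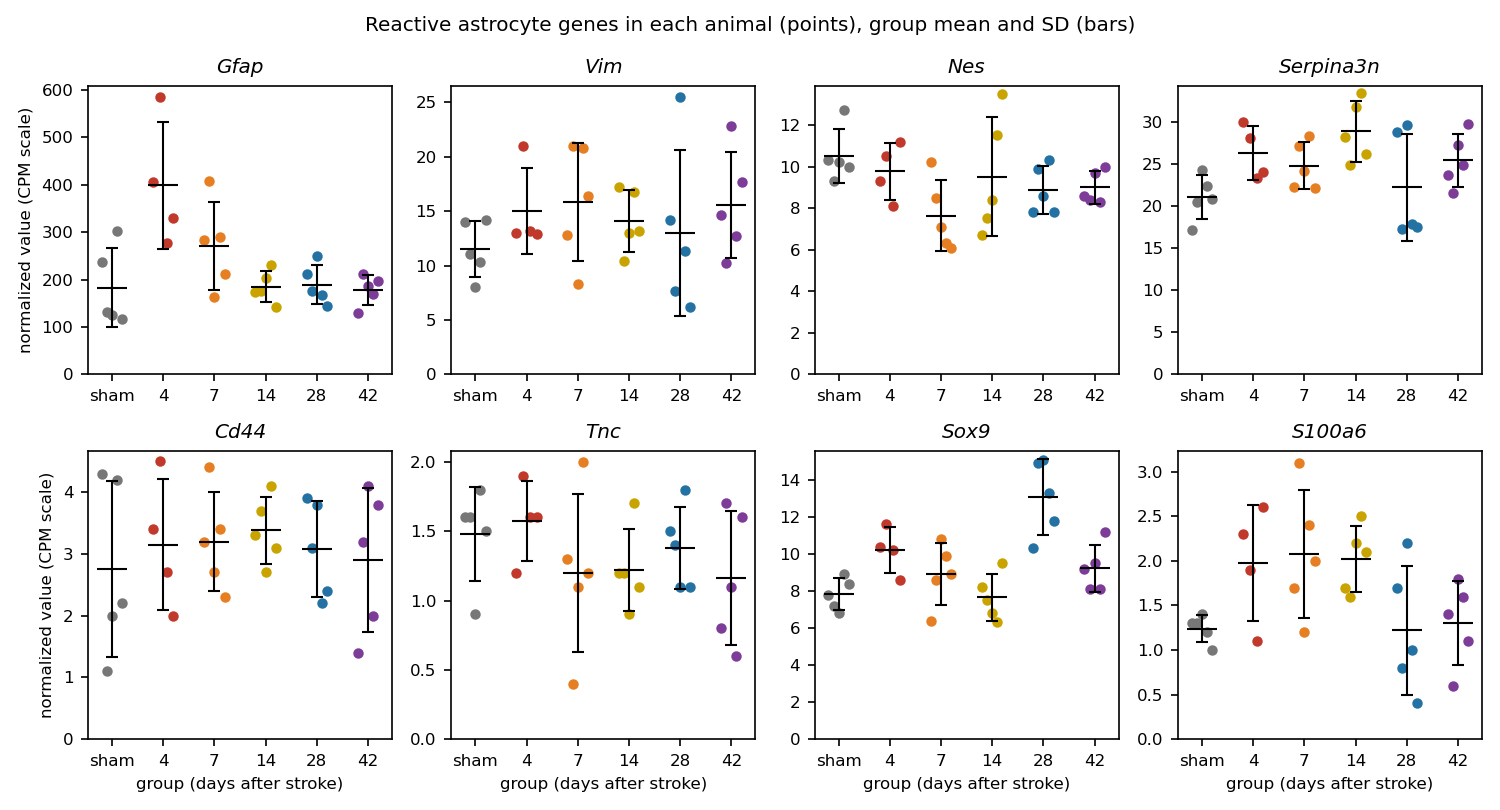
Normalized value (CPM scale, each axis from 0) of the 8 members in each of 29 animals (points), by group in days after stroke, with the group mean and SD (bars). Gfap was highest at 4 dpi (mean 399) and Sox9 at 28 dpi (mean 13.1). Gfap, Cd44, Tnc, Nes and Vim overlapped sham at every time.

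Across the 6 groups, 2 of 8 members differed by the moderated F test, Sox9 (adjusted p = 0.000891) and Gfap (adjusted p = 0.00300), beside 31.6% of all genes. Serpina3n (0.0540), S100a6 (0.0672), Nes (0.187), Vim (0.594), Tnc (0.604) and Cd44 (0.830) did not pass. Against sham, 1 member was called at 4 dpi (Gfap), none at 7 and 14 dpi, 1 at 28 dpi (Sox9) and none at 42 dpi. The shares of all genes called were 0.106%, 0.0294%, 0.00588%, 24.9% and 0.0235% in the same order. At an unadjusted p under 0.05, 3, 3, 2, 1 and 0 members passed at these times, beside 874, 992, 1973, 6548 and 2507 genes. The median log2 fold change of the 8 members was 0.34, 0.26, 0.20, 0.03 and 0.08 in the same order, and that of all genes stayed within 0.01 of zero. The 5 comparisons shared the same sham animals.

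**Figure D2:**
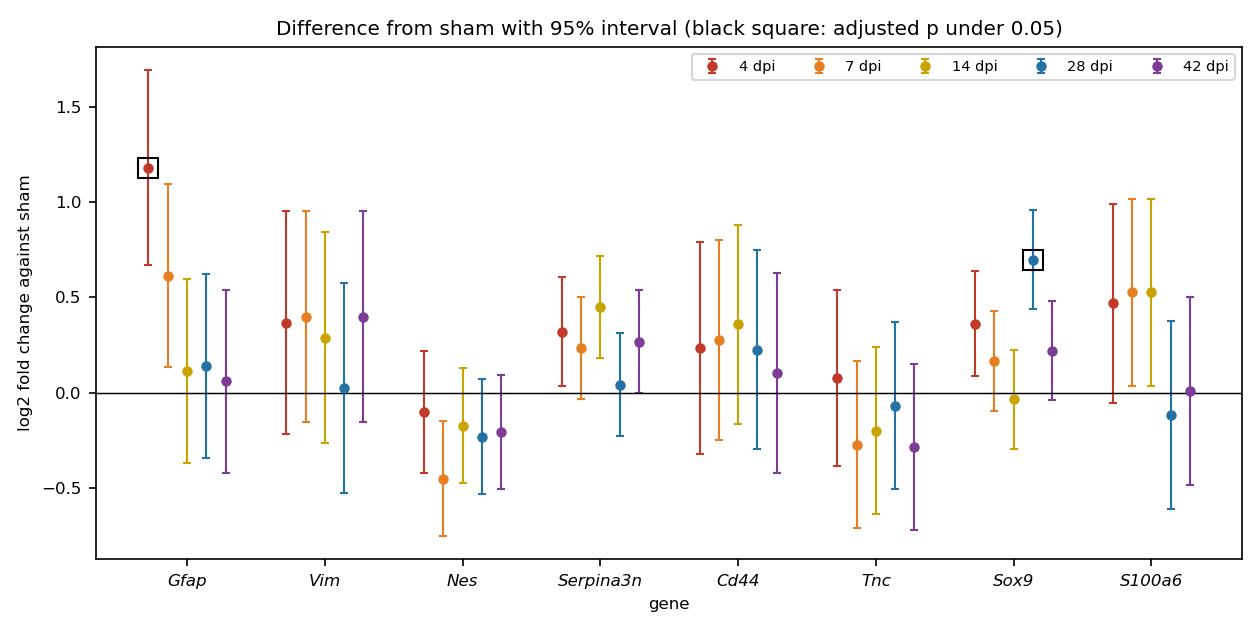
Log2 fold change against sham (vertical axis) with its 95% interval for the 8 members (horizontal axis) in the 5 stroke groups (colours), with a black square where the adjusted p was under 0.05. Of 40 points, the squares mark Gfap at 4 dpi (1.18) and Sox9 at 28 dpi (0.70).

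Gfap encodes glial fibrillary acidic protein, the defining intermediate filament of astrocytes, and it rose early. At 4 dpi its values were 277.5, 330.6, 405.2 and 584.3, against 116.9, 125.9, 130.5, 236.0 and 303.3 in sham. The 4 dpi animals were all above 4 of the 5 sham animals, and only the lowest of them (277.5) fell within the sham range. The mean was 399 ± 134 (SD, n = 4) against 183 ± 83.2 (SD, n = 5), a log2 fold change of 1.18 (SE 0.25; 2.27-fold, 95% interval 1.59 to 3.23; adjusted p = 0.0480).

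The sham animals themselves were split, with A11-1 (236.0) and A12-2 (303.3) above the other three, and the same pair had the highest sham values of Cd44 (4.3 and 4.2, against 1.1 to 2.2). At 7 dpi Gfap values were 163.6, 212.1, 282.8, 290.5 and 407.7. The group lay between the early and the late ones, with a log2 fold change against sham of 0.61 (SE 0.24; unadjusted p = 0.0142; adjusted p = 0.791). From 14 dpi on, all values (141.4 to 229.6, 144.8 to 249.2 and 129.0 to 212.0 in the 3 late groups) stood inside the sham range. The late log2 fold changes were 0.11, 0.14 and 0.06, and their 95% intervals reached from −0.42 at the lowest to 0.62 at the highest.

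The steps from 4 to 7 dpi (log2 fold change −0.57) and from 7 to 14 dpi (−0.50) each had an unadjusted p under 0.05 (0.0308 and 0.0422), but limma called no gene of the table in either step (0.00% and 0.00%; 495 and 1010 genes at an unadjusted p under 0.05). The 4 dpi call stood close to the threshold. It was lost under 6 of 12 other settings, with an adjusted p of 0.101 without the mean-variance trend and 0.260 in a fit of sham and 4 dpi alone, while its log2 fold change stayed between 1.14 and 1.197. Leaving out 1 animal at a time, the call held in 10 of 29 fits. It was lost without any of the 4 dpi animals A10-4 (log2 fold change 0.98, adjusted p = 0.477), A10-1 (0.111) and A9-4 (0.109) and the sham animals A12-1 (0.163), A12-3 (0.155) and A11-4 (0.145), and with adjusted p between 0.0531 and 0.0624 without A7-2, A8-1 or A8-3 (7 dpi), A5-1, A5-3, A5-4 or A6-2 (14 dpi), A3-1, A3-3 or A4-3 (28 dpi), or A1-3, A1-4 or A3-4 (42 dpi).

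Because Gfap was the only member called at 4 dpi, the sequence at its start site is shown, from 60 bases before the start to 20 bases after it (RefSeq, GRCm38.p6, chr11:102897181-102897260, minus strand, 5′ to 3′). This RefSeq start is that of a coding transcript, and another coding transcript starts downstream of it, at chr11:102897131. The GENCODE gene span given above reaches 3712 bases further upstream than the RefSeq start because it includes a processed transcript, not annotated as coding. Capitals mark a match to TTCNNNGAA, the palindromic core that STAT factors are known to bind. Its first base lies 2 bases before the RefSeq start.

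Gfap: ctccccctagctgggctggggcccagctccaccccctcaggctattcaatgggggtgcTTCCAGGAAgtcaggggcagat

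Windows of 250 bases before to 50 after the start were read for 7 of the 8 measured members, all but Sox9. Only the Gfap window held this motif. It was present in 8.30% of 32851 windows of all genes and in 6.89% of 15102 windows of genes with values. The AP-1 motif TGACTCA (or TGAGTCA, its other strand), present in 5.20% and 3.85% of these windows, was in none of the 7. These matches describe letters, and no binding was measured.

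Gfap at 4 dpi went together with microglia markers. The summed value of 7 microglia markers lay between 133 and 211 at 4 dpi and between 106 and 119 in sham, and 1 of them was called, Csf1r, the receptor for colony stimulating factor 1 (52.2 ± 9.21 against 30.7 ± 3.08; log2 fold change 0.74, SE 0.13, adjusted p = 0.00915). The Csf1r call was lost when 4 dpi animal A10-4 (adjusted p = 0.0986) or A9-4 (0.0612) was left out. Over all 29 animals the 3 genes most like Gfap were Csf1r (Pearson r = 0.83 of log2 values), Fcrls (0.81) and Olfml3 (0.76), all genes known from microglia, and with group means removed the r values were 0.77, 0.62 and 0.58. Animals share library depth and scaling, so these r values are descriptions. The sum of 14 astrocyte markers at 4 dpi (5335 to 5950) overlapped sham (5346 to 5709), and none of the 14 was called. All 6 oligodendrocyte markers were below sham at 4 dpi (median −0.24; 3 at an unadjusted p under 0.05) and all 5 ependymal markers above it (median 0.56; none at an unadjusted p under 0.05), with no call. At 14 dpi the microglia sums (123 to 163) were again above every sham animal, while the Gfap log2 fold change was 0.11. Neutrophil markers (5) and Schwann cell markers (3) were not analysed here. In bulk tissue, fewer cells of a type and less RNA per cell cannot be told apart, and the part of microglia in the Gfap result was not tested.

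**Figure D3:**
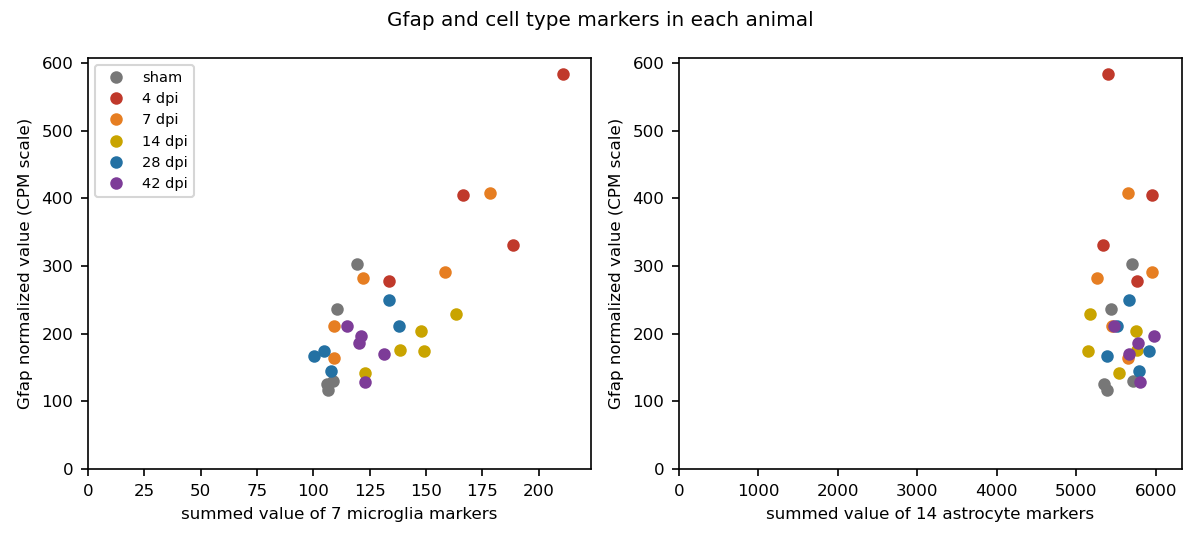
Gfap value of each of 29 animals (vertical axis, CPM scale) against the summed value of 7 microglia markers (left) and of 14 astrocyte markers (right), coloured by group. In the microglia panel the 4 dpi animals reach from A9-2 (Gfap 277.5, sum 133), which lies among animals of other groups, to A10-4 (584.3 and 211), which is the highest on both axes, whereas the astrocyte sums of all groups overlap, between 5153 and 5972.

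Neither of the other intermediate filament genes was called. Vim encodes vimentin, which astrocytes share with endothelial cells and other cells, and ranged from 8.0 to 14.2 in sham and from 12.9 to 21.0 at 4 dpi. Its log2 fold changes were 0.37, 0.40, 0.29, 0.03 and 0.40 from 4 to 42 dpi, with adjusted p between 0.525 and 1.00 and intervals that reached from −0.53 to 0.95. At 4 dpi 1 animal (A10-4, 21.0) stood apart from the other 3 (12.9 to 13.2). It was also the animal with the most Gfap, Sox9, Cd44 and Tnc in the group.

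Nes, the filament gene nestin of neural progenitors, lay lower than sham on average at each time. Values were 9.3 to 12.7 in sham and 6.1, 6.3, 7.1, 8.5 and 10.2 at 7 dpi, where 4 of 5 animals fell below the sham range. The log2 fold change was −0.45 (SE 0.15; unadjusted p = 0.00454), but it did not pass over all genes (adjusted p = 0.791). At 4, 14, 28 and 42 dpi it was −0.10, −0.17, −0.23 and −0.21, with no call.

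Sox9, the transcription factor of the set, rose late. The study itself picked Sox9 out of these animals as a gene of the late phase, so its inclusion is not independent of the 28 dpi result. At 28 dpi the values were 10.3, 11.8, 13.3, 14.9 and 15.1, against 6.8, 7.2, 7.8, 8.4 and 8.9 in sham. Every 28 dpi animal was above every sham animal and above every 14 dpi animal (6.3, 6.8, 7.5, 8.2 and 9.5). The groups of 28 dpi and sham did not overlap in 9.90% of all genes, and those of 28 and 14 dpi in 22.0%.

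Sox9 averaged 13.1 ± 2.05 at 28 dpi and 7.82 ± 0.856 in sham (SD, n = 5 each), a log2 fold change of 0.70 (SE 0.13; 1.62-fold, 95% interval 1.36 to 1.94; adjusted p = 0.00139). From 14 to 28 dpi it rose by 0.73 (SE 0.13; 1.66-fold; adjusted p = 7.47e-05), in a step in which 43.0% of all genes were called. Ependymal cells, which line the central canal, also carry Sox9. The sum of 5 of their markers was 22.0 to 25.3 at 14 dpi and 28.2 to 46.6 at 28 dpi, without overlap. Of the 5, 4 had a positive log2 fold change (median 0.66) and 1 was called, beside the 43.0% of all genes. The called marker, named after its values were seen, was Dnah11, a dynein of motile cilia (1.96 ± 0.862 to 8.44 ± 5.27, log2 fold change 1.72, SE 0.47, adjusted p = 0.00423). Without the animals of high 18S no ependymal marker was called in this step (Dnah11 2.11, adjusted p = 0.114; median of the 5 markers 1.23). From 28 to 42 dpi all 5 markers were lower (median −0.27), with no call. The part of ependymal cells in the Sox9 values was not tested. At 42 dpi the Sox9 values were 8.1, 8.1, 9.2, 9.5 and 11.2, and 3 of 5 animals stood above the sham range. The Sox9 step from 28 to 42 dpi was −0.48 (SE 0.13; adjusted p = 0.0455), beside 1.94% of all genes called. At 4 dpi Sox9 (8.6, 10.2, 10.4 and 11.6) had 3 of 4 animals above the sham range, with a log2 fold change of 0.36 (SE 0.14; unadjusted p = 0.0120; adjusted p = 0.650).

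Both rises of Sox9 to 28 dpi were called in all 29 fits that left out 1 animal (adjusted p up to 0.00813 against sham and 0.000470 against 14 dpi). Over the same 29 fits the log2 fold change of the later fall lay between −0.56 and −0.42, and its call held in 12. It was lost without any of the 28 dpi animals A3-3 (adjusted p = 0.153), A4-3 (0.1001), A4-4 (0.0713) and A4-1 (0.0564) or the 42 dpi animals A1-2 (0.108), A1-4 (0.104) and A1-1 (0.0926), and with adjusted p between 0.0502 and 0.0538 without A11-4, A12-2 or A12-3 (sham), A9-4 (4 dpi), A7-3, A8-1 or A8-3 (7 dpi), or A5-1, A5-3 or A5-4 (14 dpi). Inside label unit 3, the only one with 2 groups, Sox9 was 10.3 and 14.9 in the 28 dpi animals and 11.2 in the 42 dpi animal.

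The 28 dpi group was also the one with the most 18S ribosomal RNA. The 28 dpi animal with the least of it (A4-1, 44755, inside the sham range of 30321 to 52929) had the highest Sox9 value of all 29 animals, 15.1. With the 18S value as a covariate the log2 fold change was 0.69 and the adjusted p 0.0547, in a fit that called no gene of the table at 28 dpi (3751 genes at an unadjusted p under 0.05 in limma). When animals with an 18S value above 200000 were left out, an alternative chosen after seeing the data, 1 animal remained at 28 dpi and was assumed to vary like the other groups. Sox9 was then 0.91 against sham (adjusted p = 0.126) and 1.05 against 14 dpi (adjusted p = 0.0286), beside 2.95% of all genes called in the latter step.

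Rescaling every animal to the same sum moved the median of all genes to −0.48, −0.73 and −0.52 in the 14, 28 and 42 dpi groups. On that scale Sox9 at 28 dpi was −0.05 against sham, 0.68 above the median gene, and Gfap, Vim, Serpina3n, Nes, Tnc and S100a6 were called lower than sham, between −0.98 and −0.62, beside 66.2% of all genes called in either direction. The direction of Sox9, Gfap, Vim, Serpina3n and Cd44 against sham at 28 dpi thus differed between the scales.

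The genes most like Sox9 over 29 animals were Dyrk1b (r = 0.88), Notch3 (0.84) and Parp4 (0.84), with r values of 0.69, 0.63 and 0.79 once group means were removed. Of 7 other glial transcription factors, 2 were called against sham at 28 dpi, beside 24.9% of all genes. Both were higher, Nfia (96.6 ± 15.0 against 65.6 ± 5.98; log2 fold change 0.55, SE 0.12, adjusted p = 0.00333) and Nfib (79.4 ± 10.2 against 64.9 ± 7.41; 0.29, SE 0.10, adjusted p = 0.0288), nuclear factors that direct astrocyte development. The Nfib call was lost without A3-3 (adjusted p = 0.110), A12-1 (0.108), A4-3 (0.0809) or A12-3 (0.0695). None of the 7 was called at another time, and 1, 1, 0 and 3 of them had an unadjusted p under 0.05 at 4, 7, 14 and 42 dpi. The median of the 7 at 28 dpi was −0.00, as for all genes.

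**Figure D4:**
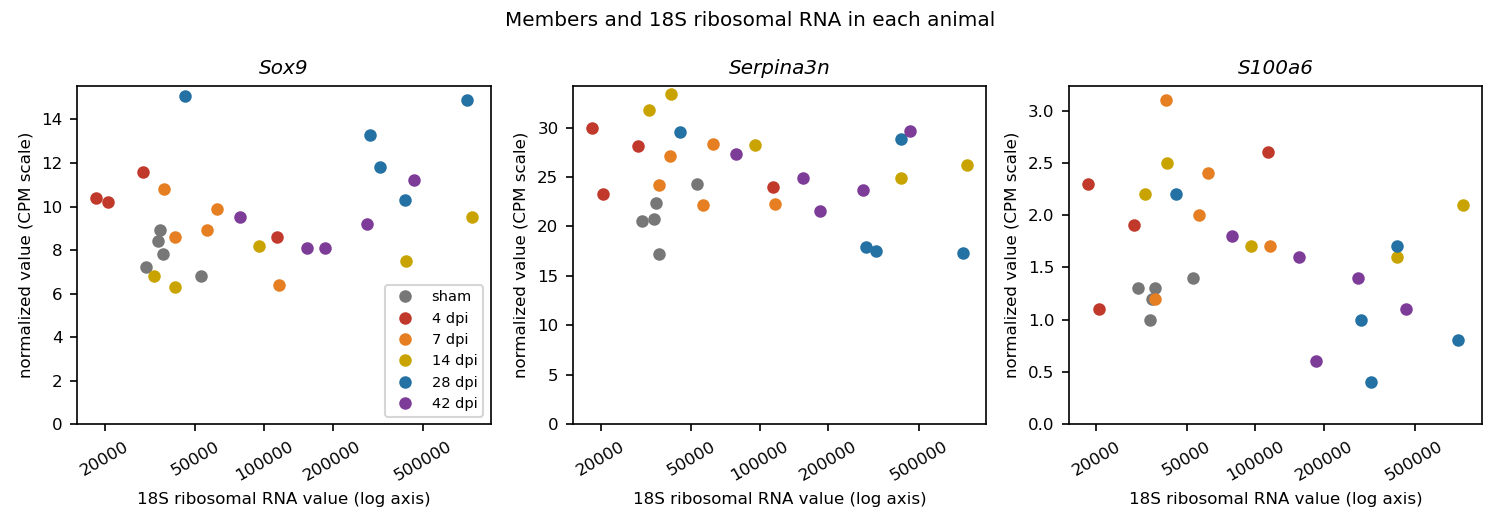
Values of Sox9, Serpina3n and S100a6 (vertical axes, CPM scale) against the value of 18S ribosomal RNA (horizontal log axis) in each of 29 animals, coloured by group. At 28 dpi Sox9 was 15.1 in A4-1, where 18S was lowest in the group (44755). It was 14.9 in A3-3, where 18S was highest (779160), and 10.3 in A3-1 (18S 417971). What part 18S had in the Sox9 values was not tested. Serpina3n and S100a6 at 28 dpi fell into a high pair and a low trio.

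Serpina3n encodes a secreted inhibitor of serine proteases that reactive astrocytes are known to release. It was highest at 14 dpi, with 24.9, 26.2, 28.2, 31.8 and 33.4 against 17.2, 20.5, 20.8, 22.4 and 24.3 in sham. All 14 dpi animals lay above all sham animals, and the groups were apart in either direction in 2.07% of all genes. The mean was 28.9 ± 3.62 against 21.0 ± 2.63 (SD, n = 5 each), and the log2 fold change was 0.45 (SE 0.13; 1.37-fold, 95% interval 1.13 to 1.65), with an unadjusted p of 0.00191 that did not pass over all genes (adjusted p = 0.381). Microglia markers were above sham at this time as well: all 7 had a positive log2 fold change (median 0.35), 6 had an unadjusted p under 0.05 and none was called, and their part in the Serpina3n values was not tested. At 4 dpi Serpina3n was 0.32 (unadjusted p = 0.0299, adjusted p = 0.854), and no member was free of overlap with sham at 4, 7 or 42 dpi (1.70%, 0.971% and 3.31% of all genes).

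From 14 to 28 dpi Serpina3n decreased by 0.41 (SE 0.13; adjusted p = 0.0139), to values of 17.3, 17.5, 17.9, 28.8 and 29.6. The 28 dpi animals did not form 1 cloud: A3-1 and A4-1 stayed at the 14 dpi level and the other 3 were at the lower end of sham. The call was lost without any of A3-3 (adjusted p = 0.0572), A4-4 (0.0518) and A4-3 (0.0501), with every animal at the same sum (0.133), and without the animals of high 18S (log2 fold change −0.07, adjusted p = 0.849). Genes most like Serpina3n were B2m (r = 0.86), Ctss (0.84) and Slc14a1 (0.81), with 0.80, 0.78 and 0.74 inside groups. In the same step, in which 43.0% of all genes were called, 3 of 7 microglia markers were called lower and none of the 7 was above zero (median −0.40; summed values 123 to 163 at 14 dpi and 101 to 138 at 28 dpi), and 5 of 6 oligodendrocyte markers were called lower (median −0.34; 6271 to 7781 and 4476 to 6587). Leaving out 1 animal at a time, the microglia count ranged from 2 to 5, and it was 5 without A6-3. The call of the microglia marker Tmem119 was lost in 6 of 29 such fits, with adjusted p up to 0.128 (without A3-3). The oligodendrocyte count was 2 or 3 without any of A5-3, A5-4, A6-2, A4-3 and A4-4. Without the animals of high 18S, which left 1 animal at 28 dpi, the medians were −0.25 (microglia) and −0.18 (oligodendrocyte). The part of these cells in the result was not tested. The only measured relative of Serpina3n, Serpina3g, was not called at any time and had no unadjusted p under 0.05.

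S100a6 encodes a small calcium-binding protein and was measured at a low level. Values were 1.0, 1.2, 1.3, 1.3 and 1.4 in sham and 1.6, 1.7, 2.1, 2.2 and 2.5 at 14 dpi, without overlap. These groups were apart in either direction in 2.07% of all genes. Log2 fold changes against sham were 0.47, 0.53 and 0.53 at the first 3 times (SE 0.26, 0.24 and 0.24), none of them called (adjusted p = 1.00, 0.840 and 0.411). At 28 dpi the values were 0.4, 0.8, 1.0, 1.7 and 2.2, the highest pair again in A3-1 and A4-1. From 14 to 28 dpi S100a6 decreased by 0.64 (SE 0.24; adjusted p = 0.0312), in the step in which the microglia and oligodendrocyte markers were lower as given for Serpina3n.

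The S100a6 call was lost without any of the 28 dpi animals A4-4 (adjusted p = 0.136), A3-3 (0.0805) and A4-3 (0.0586) or the 14 dpi animals A6-2 (0.0770), A5-4 (0.0618) and A6-3 (0.0505), and the difference was 0.05 (adjusted p = 0.957) without the animals of high 18S. At such low levels a rounding step of 0.1 is a sizeable part of a value. It was also lost with the 18S value as a covariate (0.0688), with length and GC correction (0.0604), in a fit of the 2 groups alone (0.0577) and with every animal at the same sum (0.0926).

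The S100 relatives moved with S100a6 in this step. Against sham none of the 5 with values was called at any time, with 3 at an unadjusted p under 0.05 at 14 dpi, 2 at 28 dpi and none at the other times, and their median log2 fold change was 0.56 at 14 dpi and −0.33 at 28 dpi. From 14 to 28 dpi all 5 were called lower, with a median of −0.82, beside 43.0% of all genes called in either direction. S100a1 went from 27.6 ± 4.17 to 14.8 ± 4.02 (−0.91, SE 0.16, adjusted p = 0.000110), and S100b, a marker of astrocytes, from 240 ± 34.7 to 165 ± 20.7 (−0.54, SE 0.14, adjusted p = 0.00290). S100a10, S100a13 and S100a16 were at −1.06, −0.82 and −0.67. All 5 calls held in each of the 29 fits that left out 1 animal, and none held without the animals of high 18S, where the median of the 5 was −0.32. These genes were named after their values were seen.

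At 28 dpi the same pair of animals, A3-1 and A4-1, had the highest values of 5 of the 8 members. These were Gfap (210.8 and 249.2, against 144.8 to 175.1), Vim (14.2 and 25.5, against 6.2 to 11.3), Serpina3n (28.8 and 29.6, against 17.3 to 17.9), Cd44 (3.8 and 3.9, against 2.2 to 3.1) and S100a6 (1.7 and 2.2, against 0.4 to 1.0). Their microglia marker sums were 138 and 134, against 101 to 108 in the other 3. They came from different label units, and their 18S values were 417971 and 44755, against 291950 to 779160 in the other 3. Over all animals, with group means removed, the r with 18S was −0.46 for Serpina3n, −0.41 for Vim, −0.28 for Gfap, −0.25 for S100a6 and −0.16 for Cd44. Nes and Tnc did not show this order, and in Sox9 they held the lowest and the highest value of the group. What part microglia or 18S had in this split was not tested.

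Cd44, a cell surface receptor for hyaluronan, and Tnc, the matrix glycoprotein tenascin C, were low. Cd44 ranged from 1.1 to 4.3 in sham and stayed between 1.4 and 4.5 in every stroke group. Its log2 fold changes were 0.24, 0.28, 0.36, 0.23 and 0.10, and their 95% intervals included changes of up to 1.84-fold. Tnc ranged from 0.9 to 1.8 in sham and from 0.4 to 2.0 after stroke, with log2 fold changes of 0.08, −0.27, −0.20, −0.07 and −0.29. Neither was called in any of the 9 comparisons.

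**Figure D5:**
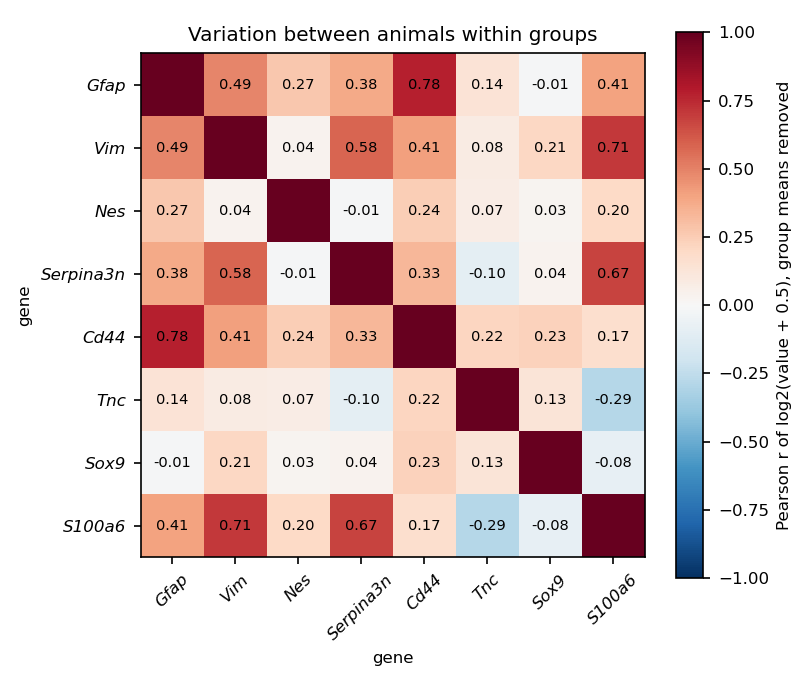
Pearson r between members over 29 animals, computed on log2(value + 0.5) after removing each group's mean (colour scale from −1 to 1, value printed in each cell). Vim, Serpina3n and S100a6 form 1 block (0.58 to 0.71), Gfap pairs with Cd44 (0.78), and Sox9, Nes and Tnc stand apart from both.

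Members also varied between animals of 1 group. Gfap and Cd44 went together (r = 0.78), as did Vim with S100a6 (0.71), Serpina3n with S100a6 (0.67) and Vim with Serpina3n (0.58), all after removal of group means. For Sox9 the r was −0.01 with Gfap and 0.04 with Serpina3n, and the lowest r of all pairs was that of Tnc with S100a6 (−0.29). Genes most like Vim over all animals were Cd109 (0.79), A2m (0.77) and Rnase4 (0.74), and those most like S100a6 were Med30 (0.84), Mrpl9 (0.82) and Coro1a (0.82). For Nes they were Klf4 (0.72), Fosl2 (0.70) and Slfn5 (0.69), for Cd44 Abi3 (0.65), B3gnt9 (0.65) and Trim68 (0.63), and for Tnc Klhl25 (0.64), Arfgap1 (0.61) and Gm18406 (0.60).

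The wider programme held few calls against sham. Of 31 other reactive astrocyte genes, 22 had values, and none was called at 4, 7, 14 or 42 dpi (7, 2, 5 and 3 at an unadjusted p under 0.05). Their median log2 fold change was 0.19, 0.18 and 0.12 in the first 3 stroke groups, −0.03 at 28 dpi and 0.10 at 42 dpi, beside 0.01, −0.00, −0.01, −0.00 and −0.01 for all genes. At 28 dpi 1 was called, Sphk1, a sphingosine kinase, which was lower (4.22 ± 0.363 against 5.52 ± 0.931; log2 fold change −0.34, SE 0.12, adjusted p = 0.0366), and its call was lost without A12-1 (adjusted p = 0.111), A11-1 (0.0967), A3-3 (0.0894), A4-3 (0.0687) or A3-1 (0.0612).

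In the gp130 and STAT3 list, 2 of 12 genes were called at 28 dpi, both higher. Lif, a cytokine of the interleukin 6 family, went from 0.680 ± 0.239 in sham to 1.5 ± 0.406 (log2 fold change 0.76, SE 0.20, adjusted p = 0.00745). Cntfr, the receptor subunit for ciliary neurotrophic factor, went from 25.9 ± 2.65 to 31.4 ± 2.25 (0.28, SE 0.10, adjusted p = 0.0459), and its call was lost in 12 of 29 fits that left out 1 animal, with adjusted p between 0.0502 and 0.101 (A11-1, A11-4, A12-1, A12-3, A9-4, A8-1, A5-3 and each of the 28 dpi animals). None of the 12 was called at 4, 7, 14 or 42 dpi, where 3, 1, 1 and 2 had an unadjusted p under 0.05.

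Among 7 intermediate filament partners only Plec was called against sham, also at 28 dpi. It encodes plectin, which links filaments to each other and to the membrane, and went from 231 ± 22.9 to 359 ± 71.8 (log2 fold change 0.61, SE 0.12, adjusted p = 0.00172). Of 13 matrix partners 3 were called at 28 dpi, all higher: Fn1, fibronectin (17.8 ± 2.81 to 30.8 ± 6.09; 0.76, SE 0.18, adjusted p = 0.00365), Tnr, tenascin R (110 ± 10.9 to 141 ± 17.6; 0.36, SE 0.08, adjusted p = 0.00431), and Tnxb, tenascin X (2.72 ± 1.05 to 4.42 ± 0.893; 0.65, SE 0.21, adjusted p = 0.0254). The Tnxb call was lost without A12-1 (adjusted p = 0.107), A12-3 (0.0755), A3-3 (0.0674), A4-4 (0.0621) or A4-3 (0.0523). At 4, 7, 14 and 42 dpi no gene of either list was called against sham, with 0, 1, 0 and 1 filament partners and 2, 2, 3 and 2 matrix partners at an unadjusted p under 0.05. All these 28 dpi counts stand beside the 24.9% of all genes called there.

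From 14 to 28 dpi, where 43.0% of all genes were called, the lists held more calls. Of the 22 other reactive astrocyte genes 5 were called lower and none higher (median −0.28), and the 5, named after their values were seen, were H2-D1 (−0.54, adjusted p = 9.80e-05) and H2-T23 (−0.48, 0.0105), which encode class I histocompatibility proteins, the immunoproteasome subunit Psmb8 (−0.71, 0.00565), the complement inhibitor Serping1 (−0.43, 0.0335) and S100a10, which is also among the S100 relatives. Without A3-3 the count was 3, with H2-T23 (adjusted p = 0.0515) and Serping1 (0.123) lost, and Serping1 was also lost without A5-3 (0.105) or A6-3 (0.0617). Of the 13 matrix partners 6 were called higher and 2 lower, and the count fell to 5 without any of A5-1, A5-3, A3-3 and A4-4. Of the 7 filament partners Plec was called higher (0.75, adjusted p = 4.24e-05) and Nefl, the neurofilament light chain of neurons, lower (−0.49, adjusted p = 0.00944). In the gp130 and STAT3 list Lif (0.69) and Il6st, which encodes gp130 (0.37, adjusted p = 0.000366), were called higher. Without the animals of high 18S, 1 animal remained at 28 dpi, so only log2 fold changes are given. They were 0.78 for Plec, 0.80 for Lif, 0.27 for Il6st and −0.42 for Nefl. For H2-D1, H2-T23, Psmb8, Serping1 and S100a10 they were −0.20, 0.04, −0.43, −0.03 and −0.43. The median of the 13 matrix partners was 0.24.

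Astrocyte markers themselves went both ways at 28 dpi, where 3 of 14 were called higher and 5 lower, and the marker counts at this time stand beside the 24.9% of all genes called. Kcnj10, an inward rectifier potassium channel of astrocytes, rose from 269 ± 30.1 to 375 ± 47.2 (log2 fold change 0.48, SE 0.14, adjusted p = 0.0132; 0.0515 without A12-1), whereas Gjb6, connexin 30, went from 56.1 ± 7.24 to 41.3 ± 5.84 (−0.44, SE 0.09, adjusted p = 0.00237) and Aqp4, the astrocytic water channel, from 341 ± 25.5 to 285 ± 8.53 (−0.26, SE 0.07, adjusted p = 0.0116). The median of the 14 was −0.18. At the other times none of the 14 was called. Of the other cell types, 4 of 6 oligodendrocyte markers were called lower at 28 dpi, and their summed value lay between 4476 and 6587 there against 6223 and 9261 in sham. Ependymal cells carry Vim as well as Sox9, and the sum of their 5 measured markers was 28.2 to 46.6 at 28 dpi against 19.0 to 45.7 in sham, with none called. Of the remaining lists at 28 dpi, 1 of 7 microglia markers and 1 of 6 fibroblast markers were called higher, 1 of 6 endothelial and 1 of 7 neuron markers were called in each direction, and none of 6 mural and 4 red blood cell markers was called (1 and 0 at an unadjusted p under 0.05). The part of a changed cell mixture in the 28 dpi results was not tested.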

How the data were processed

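The authors sequenced ribosomal-depleted RNA (TruSeq v2 with Ribo-Zero Gold, single end) and quantified transcripts of mm10 with SALMON and Tximport. They normalized the counts in edgeR (version 3.14.0 and R 3.4.1 per the submitters' notes), removed weakly expressed genes and left out 1 animal at 4 dpi. The deposited values are these normalized CPM rounded to 0.1, treated as a score because counts cannot be rebuilt from them, so depth per animal is unknown and no count model was fitted. Columns of the authors' own comparisons were not used. Of 30 labelled animals, 29 had values. The label Ctrl was read as sham.

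Values were analysed as log2(value + 0.5) with limma 3.58.1 (trend; R 4.3.3) in 1 fit of 6 groups over 16995 genes, with 5 contrasts against sham and 4 between neighbouring times. The fit was tested on simulated data. No pair of columns was identical. A p here tests a difference of group means against the spread between animals within the 6 groups. A difference between label units would be part of the group difference. Alternatives were another pseudocount, trend, scaling, filter, block, covariate, length and GC correction, and leaving out animals. Members, gene lists and tests were chosen with earlier results of these data known. Named genes were all measured members, up to 3 genes per list called against sham, by adjusted p, and the 3 genes with the highest r to each member among genes with a mean value of at least 1. Other list genes were named after their values were seen. Lists were fixed by function or cell type. Gene positions were checked against GENCODE M21.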

Additional observations from a re-analysis of the deposited data

Results flagged for a closer look

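Within groups, 1 of 48 combinations of member and group had an animal apart from the others by Dixon's test: Vim in A10-4 at 4 dpi, at 21.0 against 12.9 to 13.2 in the other 3. Chance gives about 1 in 20 such groups.

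Between neighbouring times, 4 differences passed the test of the difference itself. Sox9 rose from 14 to 28 dpi (log2 fold change 0.73) and decreased from 28 to 42 dpi (−0.48). Serpina3n (−0.41) and S100a6 (−0.64) decreased from 14 to 28 dpi, in a step in which 7301 of 16995 genes were called.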

How the results depend on the processing

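Across the 9 comparisons and 12 other settings, 794 values of the members kept their direction and their side of the threshold, 41 uncalled values changed sign, 21 lost and 3 gained a call, and 5 reversed while called in either fit. The number of members called at 4 dpi against sham was 0 in place of 1 with pseudocount 0.05, without the trend, with quantile normalization, with every animal at the same sum, in a fit of the 2 groups alone and without the animals of 18S above 200000. At 28 dpi it was 6 at the same sum, 0 with the 18S covariate and 0 without the animals of high 18S. From 14 to 28 dpi it was 0 in place of 3 at the same sum and 1 without the animals of high 18S. From 28 to 42 dpi it was 0 in place of 1 without the trend, at the same sum, in the fit of 2 groups, with the 18S covariate, with length and GC correction and without the animals of high 18S. The fit without high 18S had 1 animal at 28 dpi and was chosen after seeing the data; for the other changes the cause was not tested. Leaving out 1 animal at a time gave 0 to 1 members at 4 dpi, 1 to 3 from 14 to 28 dpi and 0 to 1 from 28 to 42 dpi. A limit of 0.1 on the adjusted p left the counts of the 9 comparisons as they were, and the F test gave 2 to 3 members under its alternatives and 4 at a limit of 0.1.

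Reversals at the same sum, all at 28 dpi against sham, were Gfap −0.65, Vim −0.72, Serpina3n −0.73 and Sox9 −0.05 among members, and Cntfr −0.50, Plec −0.18, Fn1 −0.0074, Tnr −0.43, Tnxb −0.0215, Nfia −0.24, Nfib −0.50, Kcnj10 −0.31, Cx3cr1 −0.43, Flt1 −0.42, Col1a1 −0.0911 and Slc6a5 −0.49 among other named genes, on a scale whose median gene was at −0.73. Without the animals of high 18S, S100a6 from 14 to 28 dpi was 0.0478. No paired analysis was possible because the groups share no replicate numbers. A fit with a random effect for the unit of the label changed no call of a member. Units lay almost wholly inside groups, so that fit cannot tell unit from group. Against sham it called more genes than the main fit, 30 against 18 at 4 dpi and 4891 against 4230 at 28 dpi. Values rounded to 0.1 limit S100a6 and Tnc, and depth per animal is unknown.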
